A study of Mus musculus with 12 samples.

Results

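Activating transcription factor 4 (ATF4) and the genes around it were followed in 4 kinds of mouse T cell: 42 genes in 6 roles, namely 4 transcription factors, 6 stress and feedback targets, 7 enzymes of serine, glycine and one-carbon metabolism, 6 other amino acid enzymes, 9 amino acid transporters and 10 tRNA synthetases. The genes were listed by name and not by a cut on their values, though earlier results of these data were known. A gene was read where a probe set of the array (a group of probes for 1 transcript) carries its symbol alone, and its brightest probe set by the mean of the 12 arrays stood for it. This gave 41 of the 42 genes, among 18193 genes measured in all; Pycr1, a proline synthesis enzyme, had no such probe set. The 41 genes have 88 probe sets, and 27 of them have more than 1.

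All cells were splenic T cells of female C57BL/6 mice, 8 to 12 weeks old per the labels. The NKT-like group comprised 5 cultures of total CD8+ cells grown with beads coated with anti-CD3 and anti-CD28 and with high dose IL-2, which in the study acquire NK cell markers and suppress other T cells. The cultured CD4+ group comprised 3 cultures of sorted CD4+ cells grown in the same way, the naive CD8+ group 2 samples of fresh cells enriched by negative selection, and the activated CD8+ group 2 samples stimulated with a low dose of the same antibodies in soluble form. Each sample was read on 1 Affymetrix whole-genome mouse array, and the cultures are described by the study as independent, whereas nothing tells whether the samples of the groups of 2 came from separate animals. With 2 to 5 arrays a group, the number of arrays limits the precision.

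ATF4 is the main transcription factor of the integrated stress response. Kinases that sense lack of amino acids, unfolded protein or other stress phosphorylate the initiation factor eIF2, which slows translation in general and favours translation of the ATF4 message; growth signals through mTORC1 raise ATF4 too. ATF4 pairs with other bZIP proteins on a composite element of a C/EBP site joined to an ATF site, and switches on genes that make, import and charge amino acids, which T cells need in quantity when they begin to divide. Since much of this control is translational, the level of Atf4 mRNA is not a reading of ATF4 protein.

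The core of that composite element was searched for as TGATGNAA, with N for any base, on both strands of RefSeq promoter windows of GRCm38.p6, which run from 250 bases before to 50 bases after each transcription start site. Windows were found for 35 of the 42 genes, and 14 of the 35 (40.0%) held the element, against 4.51% of 27025 genes with a window. Since the 42 genes were listed as parts of this programme, the share is a description and not a test. The element stood in the windows of 5 of 8 tRNA synthetases, 3 of 5 stress and feedback targets, 3 of 5 other amino acid enzymes, 2 of 6 transporters, 1 of 4 factors and 0 of 7 serine, glycine and one-carbon enzymes. The E-box CACGTG, whose last letters TG can also open the element, was searched for in the same way and was held by 5 of the 35 genes (14.3%) and by 8.09% of all genes. Of the 16 elements found, 12 began before the start site, and 12 read TTGCATCA or its reverse complement TGATGCAA. The sites of 9 genes described below are shown as stretches of 30 bases, 5′ to 3′ on the strand of the gene, with the element in capitals.
Atf3 (chr1:191183425-191183454, minus strand): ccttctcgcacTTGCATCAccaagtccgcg
Trib3 (chr2:152344028-152344057, minus strand): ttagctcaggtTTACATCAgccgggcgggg
Chac1 (chr2:119351038-119351067, plus strand): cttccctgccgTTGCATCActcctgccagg
Asns (chr6:7693214-7693243, minus strand): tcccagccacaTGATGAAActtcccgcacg
Got1 (chr19:43524689-43524718, minus strand): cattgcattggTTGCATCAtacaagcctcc
Slc7a11 (chr3:50443651-50443680, minus strand): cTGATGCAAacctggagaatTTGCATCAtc
Gars1 (chr6:55037960-55037989, plus strand): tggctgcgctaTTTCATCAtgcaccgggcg
Tars1 (chr15:11399655-11399684, minus strand): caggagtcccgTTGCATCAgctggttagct
Iars1 (chr13:49682126-49682155, plus strand): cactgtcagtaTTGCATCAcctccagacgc

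The promoter of Asns is shown at full length before its start site (chr6:7693210-7693459, minus strand), as this gene passed in more of the 6 comparisons than most of the list, among them NKT-like against cultured CD4+ cells.
Asns: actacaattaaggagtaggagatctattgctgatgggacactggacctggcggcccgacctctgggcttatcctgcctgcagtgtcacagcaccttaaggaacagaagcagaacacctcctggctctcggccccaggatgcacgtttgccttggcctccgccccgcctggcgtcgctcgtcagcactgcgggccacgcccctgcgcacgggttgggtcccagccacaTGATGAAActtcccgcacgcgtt

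**Figure D1:**
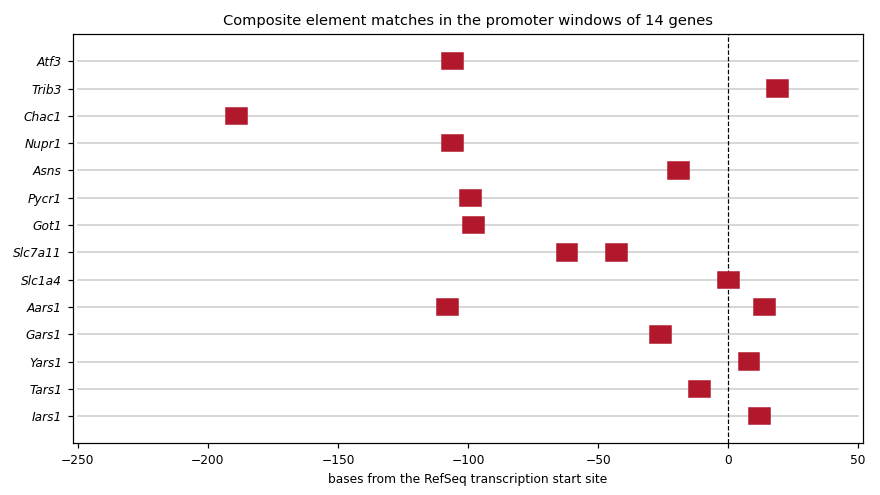
Positions of the composite element in the promoter windows of the 14 genes that hold it; the horizontal axis is the distance in bases from the RefSeq start site (dashed line), each grey line is 1 window and each red block 1 element. Slc7a11 and Aars1 hold 2 elements each, and 12 of the 16 elements begin before the start site.

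The values are log2 signals made by the authors with RMA, so a difference of 1 is a 2-fold change. Groups were compared with limma on all 12 arrays, and a gene passed at a Storey q of 0.01 or less. Counts at an unadjusted p under 0.05 were not taken over all genes, so no share of all genes stands beside them. The naive CD8+ arrays stood apart. Their SD over probe sets and that of activated CD8+ replicate 2 lay between 1.78 and 1.83, and those of the other 9 arrays between 1.91 and 2.03. The summed signal of 10 B cell markers was 13.27 to 13.71 (log2) in the naive samples and 9.52 to 11.24 in all others, and that of 9 red cell precursor markers 12.47 to 13.01 against 9.17 to 9.57; the part of these cells in any result against naive CD8+ was not tested. Finally, leaving out naive replicate 2 lowered the total of listed genes that rose over naive in each comparison, though not the count of every role, as given below. The summed signal of 8 myeloid markers was 10.56 to 11.99 in NKT-like cells against 9.11 to 10.13 in the other samples. The mean of their log2 signals was 6.51 to 6.67 in NKT-like, 6.45 to 6.71 in naive, 5.94 to 6.18 in cultured CD4+ and 5.96 to 6.40 in activated CD8+ cells. Against naive 1 of the 8 rose and 3 fell in NKT-like cells. Against cultured CD4+ cells 1 was higher, Fcer1g, which NK cells also express, and 0 were lower. The part of myeloid cells was not tested. T cell markers were present in all groups, with Cd8a at 10.91 in NKT-like and 6.73 in cultured CD4+ cells and Cd4 at 6.91 and 10.004. In bulk RNA, fewer cells of a type and less RNA per cell cannot be told apart.

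Against naive CD8+ cells, the NKT-like cultures had more mRNA of every tRNA synthetase on the list and of the serine synthesis pathway. The same held for asparagine synthetase and the leucine transporter Slc7a5. Most transporters and stress targets did not pass, though 8 of 9 transporters and 6 of 6 stress targets had a positive difference. Their median differences were 0.61 and 1.09 log2. Of 41 genes, 22 rose and 1 fell, and 18 did not pass; of all genes 10.7% rose and 6.86% fell. The listed genes were bright, with a median signal above that of 90.4% of all genes, and among the 12901 genes kept by a filter on low values 17.4% rose and 8.54% fell. The median difference over the 41 genes was 1.22 log2, a 2.32-fold change, and over all genes -0.05. Cultured CD4+ cells, with 14 higher (11.6% of all genes) and 1 lower (5.64%), and activated CD8+ cells, with 18 higher (4.43%) and 1 lower (2.78%), had median differences of 0.85 and 1.39. All 3 comparisons share the 2 naive samples. Without regard to the test, the values did not overlap with naive in 32 genes for NKT-like cells (49.1% of all genes), 31 for cultured CD4+ cells (53.7%) and 36 for activated CD8+ cells (45.8%), of which 30, 27 and 35 were higher. In all 3, the same 13 genes were higher, namely Atf3, Psat1, Phgdh, Psph, Mthfd2, Got1, Slc7a5, Gars1, Wars1, Tars1, Mars1, Eprs1 and Iars1, and Slc7a11 was lower. The other genes called in NKT-like cells were Atf4, Sesn2, Shmt2, Asns, Aldh18a1, Aars1, Sars1, Nars1 and Yars1.

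The number of genes that passed rests on the naive samples. With naive replicate 2 left out, 8 genes were higher in NKT-like cells, 5 in the CD4+ cultures and 6 after activation, and with naive replicate 1 left out 14, 9 and 12. The calls over all genes fell as well, to 2.32%, 3.5% and 0.731% higher without naive replicate 2 and to 5.69%, 6.4% and 1.92% without naive replicate 1. Without cultured CD4+ replicate 2 or 3 the count in that group was 6 each time (5.81% and 6.15% of all genes). The count in activated CD8+ cells also fell without activated CD8+ replicate 1, a fit that leaves 1 sample in that group. In NKT-like cells the calls of Psat1, Mthfd2, Asns, Slc7a5 and Gars1 held under every alternative that was run. After quantile normalization of the deposited values 9.08% of all genes rose and 9.56% fell in NKT-like cells, with 20 and 2 of the 41 genes, and 9.2% and 7.83% in cultured CD4+ cells, with 9 and 3.

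**Figure D2:**
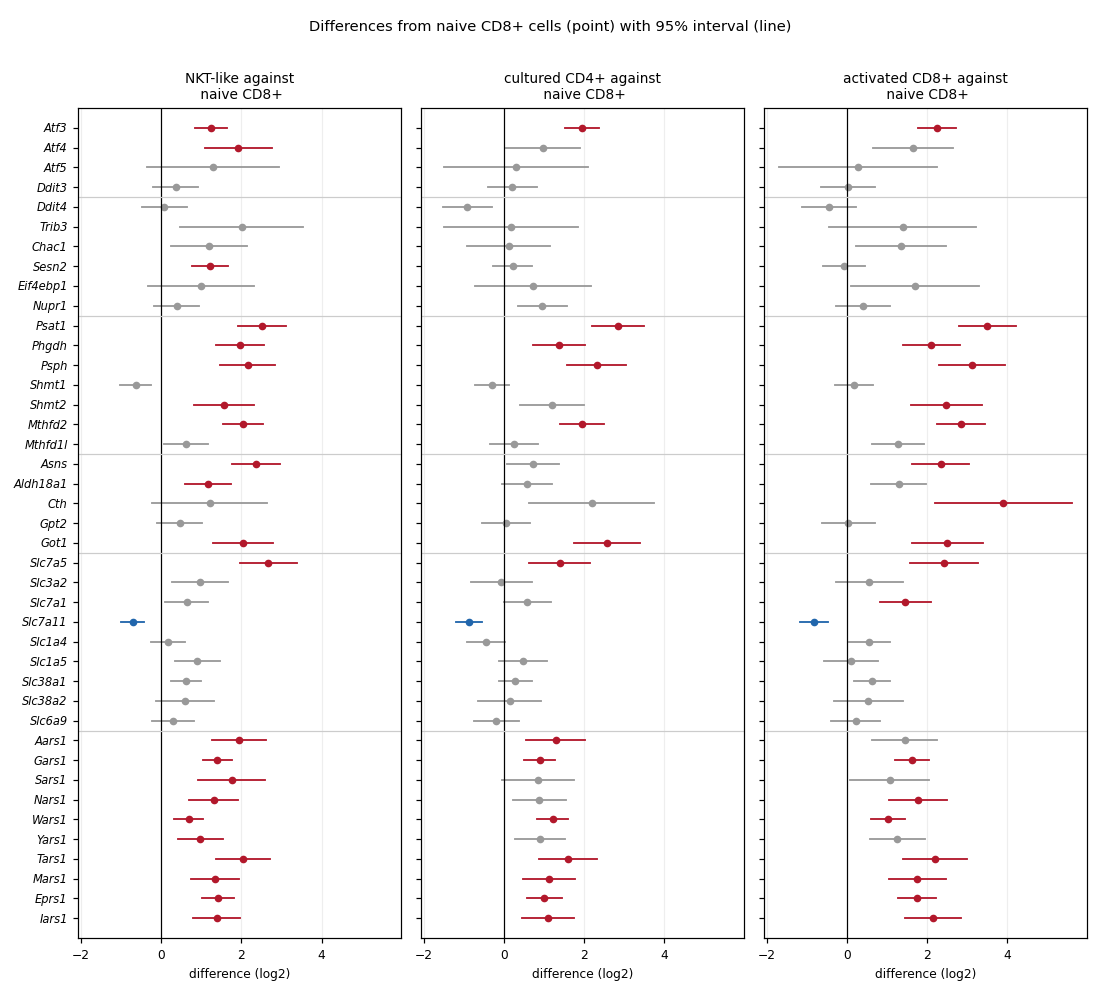
Difference from naive CD8+ cells in log2 units for the 41 genes, ordered by role between the grey lines, in NKT-like, cultured CD4+ and activated CD8+ cells; points are differences, lines 95% intervals, red passed as higher, blue as lower and grey did not pass. All 10 tRNA synthetases at the bottom of the NKT-like panel lie to the right of 0, and Slc7a11 is the only blue point in each panel.

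Among the factors, Atf4 itself rose in NKT-like cells. Its signal was 12.19, 10.53, 12.23, 11.19 and 11.22 in the 5 NKT-like cultures, 10.44, 10.58 and 10.50 in cultured CD4+ cells, 11.33 and 11.05 in activated CD8+ cells and 9.70 and 9.38 in naive cells. Every stimulated sample lay above both naive ones. NKT-like cells exceeded naive by 1.93 ± 0.38 (SE) log2, a 3.80-fold change (q = 0.00209). The difference was 1.65 ± 0.46 in activated CD8+ cells (q = 0.0261) and 0.97 ± 0.42 in cultured CD4+ cells (q = 0.0492), and neither passed in the main fit. With the pair of groups fitted alone, Atf4 passed in cultured CD4+ cells (q = 0.00295). In activated CD8+ cells it passed with the mean of all probe sets (q = 0.00583) and without NKT-like replicate 2 (q = 0.0097). The study's own table puts Atf4 under a q of 0.01 for NKT-like and cultured CD4+ cells, but not for activated ones. The stimulated groups did not differ from each other at the threshold, with 0.96 (95% interval 0.23 to 1.70) for NKT-like against cultured CD4+. The NKT-like call was lost without naive replicate 1 (q = 0.0145) and without naive replicate 2 (q = 0.0497), as well as after cyclic loess (q = 0.0108) and with the replicate block (q = 0.0207), and a second Atf4 probe set, marked as able to bind other sequences, differed by 1.09 in NKT-like cells (q = 0.0135) and passed in activated CD8+ cells at 2.02 (q = 0.00507).

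Atf3, a stress-induced repressor and a target of ATF4, had another order. Its signal was 8.03, 7.77, 7.93, 7.84 and 8.31 in NKT-like, 8.51, 8.90 and 8.60 in cultured CD4+, 9.26 and 8.68 in activated and 6.66 and 6.79 in naive cells. The NKT-like values lay between the naive and the other stimulated samples without overlap. Over naive it rose 2.38-fold in NKT-like (q = 0.000356), 3.85-fold in cultured CD4+ (q = 4.17e-05) and 4.74-fold in activated CD8+ cells (q = 0.000105). The other 2 factors did not pass in any comparison. Atf5, a relative of ATF4 that acts in the mitochondrial stress response, differed by 1.29 ± 0.75 in NKT-like cells (q = 0.0951), and Ddit3, the stress factor CHOP, by 0.36 ± 0.26.

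Of the 6 stress and feedback targets 1 rose in NKT-like cells (10.7% of all genes), and 0 in cultured CD4+ (11.6%) and activated CD8+ cells (4.43%). At an unadjusted p under 0.05 limma counted 3 higher in NKT-like cells and 2 higher in activated CD8+ cells. In cultured CD4+ cells it counted 1 higher and 1 lower. The fit pools the error of a gene over the 4 groups, and the Trib3 SD was 1.36 in NKT-like but 0.30 in naive and in activated cells. In activated CD8+ cells 4 of the 6 differences from naive were positive, with a median of 0.88 log2. In 4 of the 6 the activated and naive values did not overlap, where 45.8% of all genes did not overlap. The gene that rose at the threshold was Sesn2, which codes for the leucine sensor sestrin 2, a brake on mTORC1. Its signal was 8.48, 8.45, 8.57, 8.04 and 8.51 in NKT-like, 7.02, 7.68 and 7.53 in cultured CD4+, 7.30 and 6.94 in activated and 6.999 and 7.39 in naive cells. All NKT-like values were above all 7 others, and the change over naive was 2.32-fold (q = 0.000792), a call lost without naive replicate 1 (q = 0.0159). Trib3, a pseudokinase that restrains ATF4, differed by 2.01 ± 0.70 (q = 0.0241), and Chac1, which degrades glutathione, by 1.19 ± 0.43 (q = 0.0276), neither past the threshold. Eif4ebp1, the translation repressor 4E-BP1, differed by 0.99 ± 0.60, Nupr1 by 0.39 ± 0.25 and Ddit4, the mTORC1 inhibitor REDD1, by 0.08 ± 0.25.

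The serine, glycine and one-carbon enzymes were called in part. Of the 7, 5 rose in NKT-like cells (10.7% of all genes), 4 in the CD4+ cultures (11.6%) and 5 after activation (4.43%). Without naive replicate 2 fewer of them passed in each group, and in NKT-like cells the calls of Phgdh, Psph and Shmt2 were lost. Fewer also passed after activation without activated replicate 1. Each of these fits leaves 1 sample in a group. The 3 steps from glycolysis to serine are made by Phgdh, Psat1 and Psph. Psat1 signal was 11.24, 11.21, 10.53, 11.40 and 10.43 in NKT-like, 10.91, 11.53 and 11.41 in cultured CD4+, 12.00 and 11.89 in activated and 8.27 and 8.62 in naive cells. Psph signal was 9.24, 9.08, 9.40, 9.63 and 8.83 in NKT-like, 8.74, 9.74 and 9.66 in cultured CD4+, 10.42 and 9.97 in activated and 7.49 and 6.66 in naive cells. In both genes the naive samples were lowest and the activated ones highest, with no overlap. For NKT-like, cultured CD4+ and activated CD8+ cells in turn, Psat1 was 5.74-fold, 7.15-fold and 11.3-fold over naive (q = 5.41e-05, 4.96e-05 and 8.06e-05), and Psph 4.48-fold, 4.95-fold and 8.72-fold (q = 0.00033, 0.000405 and 0.000412).

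Phgdh rose 3.89-fold in NKT-like cells, 2.59-fold in cultured CD4+ and 4.29-fold in activated CD8+ cells. The mitochondrial folate enzyme Mthfd2 rose 4.14-fold, 3.83-fold and 7.14-fold in the same order. Shmt2, which splits serine into glycine and a one-carbon unit in mitochondria, rose 2.96-fold in NKT-like and 5.58-fold in activated CD8+ cells, and in cultured CD4+ cells its 2.29-fold difference did not pass (q = 0.016). Mthfd1l, a mitochondrial folate enzyme that makes formate, did not pass in any group, with 0.62 ± 0.25 log2 in NKT-like cells. Shmt1, the cytosolic counterpart of Shmt2, went the other way in NKT-like cells at -0.63 ± 0.18 without passing (q = 0.0102). Its 4 probe sets disagreed: 1 of the other 3 was higher than naive by 1.74 (q = 0.00807).

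Of the other amino acid enzymes 5 were measured. Asns, Aldh18a1 and Got1 rose in NKT-like cells, Got1 alone in cultured CD4+ and Asns, Cth and Got1 in activated CD8+ cells. In the same order of groups, 10.7%, 11.6% and 4.43% of all genes rose. Asns, which makes asparagine and is a classical ATF4 target, had a signal of 11.26, 10.71, 11.00, 11.32 and 10.26 in NKT-like, 8.86, 9.42 and 9.53 in cultured CD4+, 11.02 and 10.76 in activated and 8.50 and 8.60 in naive cells. NKT-like and activated samples overlapped and lay above all cultured CD4+ samples, which in turn lay above both naive ones. The fold over naive was 5.13 for NKT-like (q = 7.83e-05) and 5.07 for activated CD8+ samples (q = 0.000975), and 1.65-fold in cultured CD4+ cells without passing (q = 0.0423). The call in activated CD8+ cells was lost without naive replicate 2 or activated replicate 1 (q = 0.0107 each time).

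Got1, the cytosolic aspartate aminotransferase, had a signal of 9.01, 8.88, 8.68, 9.10 and 9.47 in NKT-like, 9.07, 9.84 and 9.77 in cultured CD4+, 9.94 and 9.04 in activated and 7.54 and 6.44 in naive cells. The 3 stimulated groups overlapped, with changes of 4.11-fold, 5.93-fold and 5.66-fold over naive in NKT-like, cultured CD4+ and activated CD8+ cells. Cth, which makes cysteine, showed the widest range of any listed gene. Its signal was 5.71, 5.32, 5.97, 7.80 and 5.05 in NKT-like, 5.92, 7.39 and 7.49 in cultured CD4+, 9.09 and 8.22 in activated and 4.70 and 4.81 in naive cells. The activated samples lay above all others, 3.90 ± 0.78 log2 over naive (q = 0.00603), a call lost without cultured CD4+ replicate 2 (q = 0.0103), without either naive sample (q = 0.0348 and 0.0488) or without activated replicate 1 (q = 0.0515). The naive values are below the array medians, where the signal includes array background, so that no fold is given. Aldh18a1, the first step of proline synthesis, rose 2.24-fold in NKT-like cells, and Gpt2, a mitochondrial alanine aminotransferase, differed by 0.46 ± 0.25. Of the 5 enzymes, 1 rose in NKT-like and 0 in activated CD8+ cells without naive replicate 2, 2 in each without naive replicate 1, 2 in activated cells without cultured CD4+ replicate 2, and 0 there without activated replicate 1.

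Few of the 9 transporters were called: 1 rose and 1 fell in NKT-like and in cultured CD4+ cells, and 2 rose and 1 fell in activated CD8+ cells. In NKT-like, cultured CD4+ and activated CD8+ cells 10.7%, 11.6% and 4.43% of all genes rose and 6.86%, 5.64% and 2.78% fell. At an unadjusted p under 0.05 limma counted 5 transporters higher and 1 lower in NKT-like cells. The counts were 1 and 1 in cultured CD4+ and 4 and 1 in activated CD8+ cells. Slc7a5, which carries leucine and other large neutral amino acids as a dimer with Slc3a2, had a signal of 12.01, 10.94, 12.09, 12.06 and 11.34 in NKT-like, 10.09, 10.74 and 10.37 in cultured CD4+, 11.67 and 11.20 in activated and 9.24 and 8.79 in naive cells. All NKT-like samples exceeded all cultured CD4+ samples, and all of these exceeded the naive ones. Its change over naive was 6.38-fold in NKT-like (q = 0.000103), 2.61-fold in cultured CD4+ (q = 0.0069) and 5.35-fold in activated CD8+ cells (q = 0.00193). The partner chain Slc3a2 differed by 0.97 ± 0.31 in NKT-like cells without passing (q = 0.0188). Slc7a1, which carries arginine and lysine, rose 2.75-fold in activated CD8+ cells (q = 0.00608). The count of transporters that rose was 0 in cultured CD4+ cells without either naive sample or without cultured CD4+ replicate 2 or 3. In activated CD8+ cells it was 0 without naive replicate 2 or activated replicate 1, and 1 without naive replicate 1 or cultured CD4+ replicate 2 or 3.

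Slc7a11, the cystine importer and a known ATF4 target, moved against the rest. Its signal was 5.07, 5.02, 5.05, 5.35 and 4.82 in NKT-like, 5.05, 4.80 and 4.84 in cultured CD4+, 4.87 and 5.02 in activated and 5.83 and 5.72 in naive cells. Both naive samples lay above all the others, by 1.64-fold over NKT-like (q = 0.00159), 1.84-fold over cultured CD4+ (q = 0.000816) and 1.78-fold over activated CD8+ cells (q = 0.00513). All its values are below the array medians of 6.23 to 6.42, where the signal includes array background, and a second, dimmer probe set differed by 0.08 (q = 0.206). The call in NKT-like cells was lost without either naive sample (q = 0.0215 and 0.0221). The calls were also lost without either naive sample in activated CD8+ cells (q = 0.0353 and 0.0338), without activated replicate 1 there (q = 0.0377), and without naive replicate 1 in cultured CD4+ cells (q = 0.0103). Slc1a5, Slc38a1, Slc38a2, Slc6a9 and Slc1a4, which carry glutamine, alanine, glycine or serine, differed by 0.90, 0.61, 0.60, 0.29 and 0.17 log2 in NKT-like cells and did not pass.

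**Figure D3:**
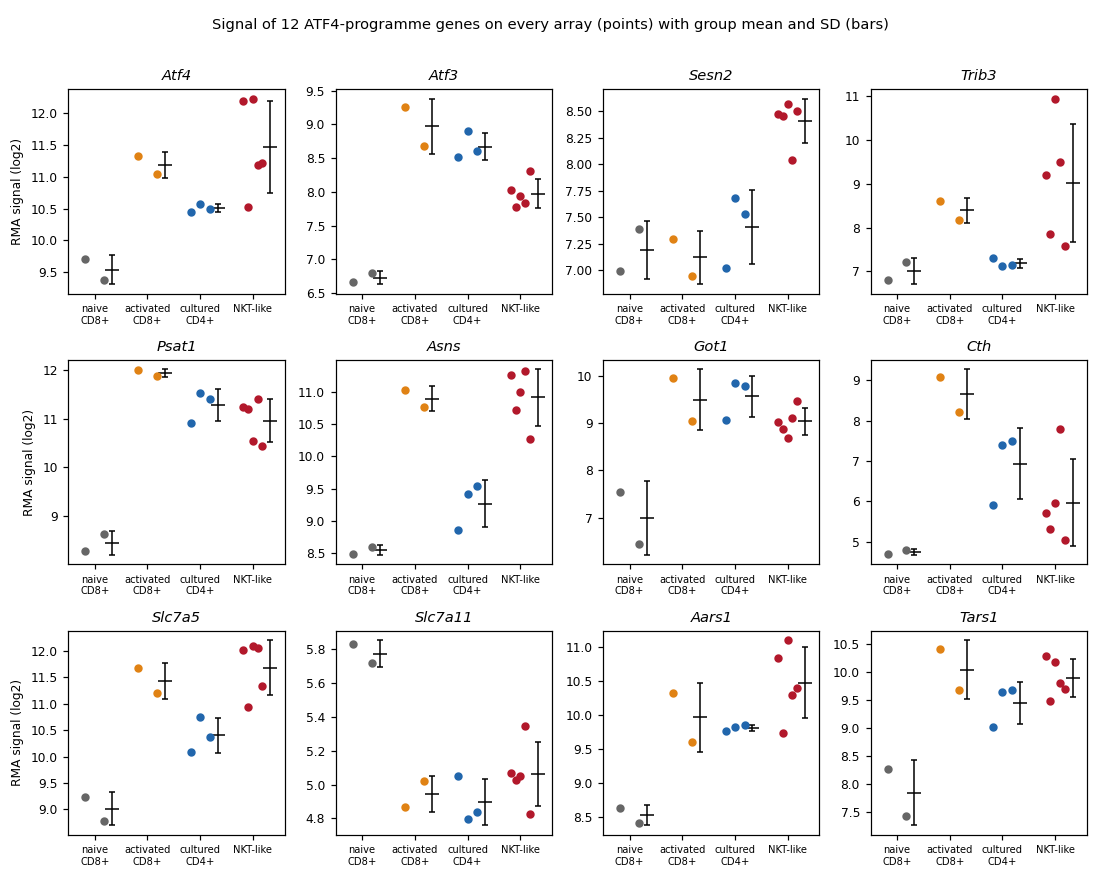
RMA signal (log2, vertical axis, own scale in each panel) of 12 of the genes on every array; points are samples of naive CD8+ (2), activated CD8+ (2), cultured CD4+ (3) and NKT-like (5) cells, and bars are the group mean and SD. Sesn2 is highest in all 5 NKT-like cultures, Asns separates cultured CD4+ from both other stimulated groups, and Slc7a11 is highest in the naive samples.

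The tRNA synthetases, which join each amino acid to its tRNA, had the most calls. In NKT-like cells 10 of 10 rose (10.7% of all genes), in cultured CD4+ cells 7 of 10 (11.6%) and in activated CD8+ cells 7 of 10 (4.43%). The median differences were 1.40, 1.05 and 1.69 log2. Without naive replicate 2 the counts were 2, 1 and 2, and without naive replicate 1 they were 6, 3 and 4. In cultured CD4+ cells 1 was left without cultured CD4+ replicate 2 or 3, and in activated CD8+ cells 2 without activated replicate 1. Aars1, the alanine enzyme, had a signal of 10.83, 9.74, 11.10, 10.30 and 10.40 in NKT-like, 9.76, 9.83 and 9.85 in cultured CD4+, 10.32 and 9.61 in activated and 8.63 and 8.42 in naive cells. Tars1, the threonine enzyme, had 10.28, 9.48, 10.17, 9.81 and 9.68 in NKT-like, 9.01, 9.63 and 9.68 in cultured CD4+, 10.41 and 9.66 in activated and 8.26 and 7.43 in naive cells. In both, the 3 stimulated groups overlapped and lay above the naive samples. Tars1 rose 4.12-fold, 3.03-fold and 4.58-fold in NKT-like, cultured CD4+ and activated CD8+ cells, and Aars1 3.86-fold in NKT-like and 2.44-fold in cultured CD4+ cells, whereas its 2.71-fold difference in activated CD8+ cells did not pass (q = 0.0179). In NKT-like cells the smallest changes of the 10 were those of Wars1 and Yars1, the tryptophan and tyrosine enzymes, at 1.61-fold and 1.97-fold, and these calls were lost in 10 and 12 of 25 alternative fits.

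The synthetases outside the list were counted in the same way. Of 12 measured genes for other cytosolic synthetases and their scaffold, 7 rose and 0 fell in NKT-like cells, with Kars1 (lysine) at 3.06-fold and the scaffold gene Aimp1 at 2.61-fold. Of 16 genes for the mitochondrial enzymes 0 rose and 0 fell in limma, and 2 were higher at an unadjusted p under 0.05. At the q threshold 10.7% of all genes rose and 6.86% fell. The median differences were 1.19 log2 for the cytosolic and 0.06 for the mitochondrial genes, beside -0.05 for all genes. In cultured CD4+ and activated CD8+ cells the cytosolic counts were 4 and 6 and the mitochondrial counts 1 and 0. The last came with 4 higher at an unadjusted p under 0.05. In these 2 groups 11.6% and 4.43% of all genes rose. Their medians were 1.01 and 1.42 log2 for the cytosolic and 0.24 and 0.41 for the mitochondrial genes. Without naive replicate 2 the cytosolic counts were 0 in all 3 groups.

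Between the stimulated groups few of the 41 genes passed, and those that did involve Asns, Sesn2 and Atf3. NKT-like against cultured CD4+ cells, which had the same culture, had 2 genes higher (1.24% of all genes) and 0 lower (1.85%). Asns was 3.11-fold higher in NKT-like cells, 1.64 ± 0.24 log2 (q = 0.00193), and its second probe set gave 1.98 (q = 0.00414). Sesn2 was 2.00-fold higher, 1.00 ± 0.18 log2 (q = 0.00666). The median difference over the 41 genes was 0.41 log2 against 0.00 over all genes, and 33 of 41 were higher in NKT-like cells. At an unadjusted p under 0.05 limma counted 17 higher and 3 lower, a cut that was not counted over all genes. In 13 genes the groups did not overlap, 11 higher and 2 lower, where 14.9% of all genes did not overlap. Slc7a5 differed by 1.29 ± 0.28 (q = 0.021), Ddit4 by 1.00 ± 0.22 (q = 0.0234) and Slc3a2 by 1.04 ± 0.27 (q = 0.0529) without passing. The Sesn2 call was lost in 7 of the fits that left out a sample of these 2 groups, all but that without NKT-like replicate 4, with q from 0.0117 to 0.0265, while that of Asns held in each.

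Against activated CD8+ cells, NKT-like cells had 1 gene higher (3.36% of all genes) and 1 lower (1%). Sesn2 was 2.44-fold higher, 1.29 ± 0.20 log2 (q = 0.00241), and Atf3 was 1.99-fold lower, -0.996 ± 0.18 log2 (q = 0.00533). Asns did not differ by more than its error, 0.02 with a 95% interval of -0.58 to 0.61, and for Atf4 the interval ran from -0.56 to 1.12. All 7 serine, glycine and one-carbon enzymes were lower in NKT-like cells, 6 of them at an unadjusted p under 0.05 and 0 past the threshold, with a median of -0.81 log2. Over the 41 genes the groups did not overlap in 12, with 2 higher and 10 lower in NKT-like cells, where 23.2% of all genes did not overlap. Cth differed by -2.69 ± 0.65 log2 without passing (q = 0.0211), with 4 of the 5 NKT-like values below the array medians. The Sesn2 call was lost without activated replicate 2 (q = 0.041), and that of Atf3 without activated replicate 1 (q = 0.0266) or without any of NKT-like replicates 1 to 4 (q = 0.0102 to 0.0137).

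Cultured CD4+ against activated CD8+ cells gave 0 genes higher (1.53% of all genes), also 0 at an unadjusted p under 0.05, and 1 lower (0.319%), Asns, which was 3.08-fold lower at -1.62 ± 0.29 log2 (q = 0.00918). At an unadjusted p under 0.05 limma counted 18 lower, among them all 7 serine, glycine and one-carbon enzymes, of which 0 passed. This cut was not counted over all genes. The groups did not overlap in 27 genes, 26 of them lower in cultured CD4+ cells, where 24.4% of all genes did not overlap. The median difference was -0.64 log2 over the 41 genes and -0.02 over all genes. The Asns call was lost in 11 of the 12 fits that left out 1 sample, all but that without NKT-like replicate 5, with q from 0.0102 to 0.057.

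**Figure D4:**
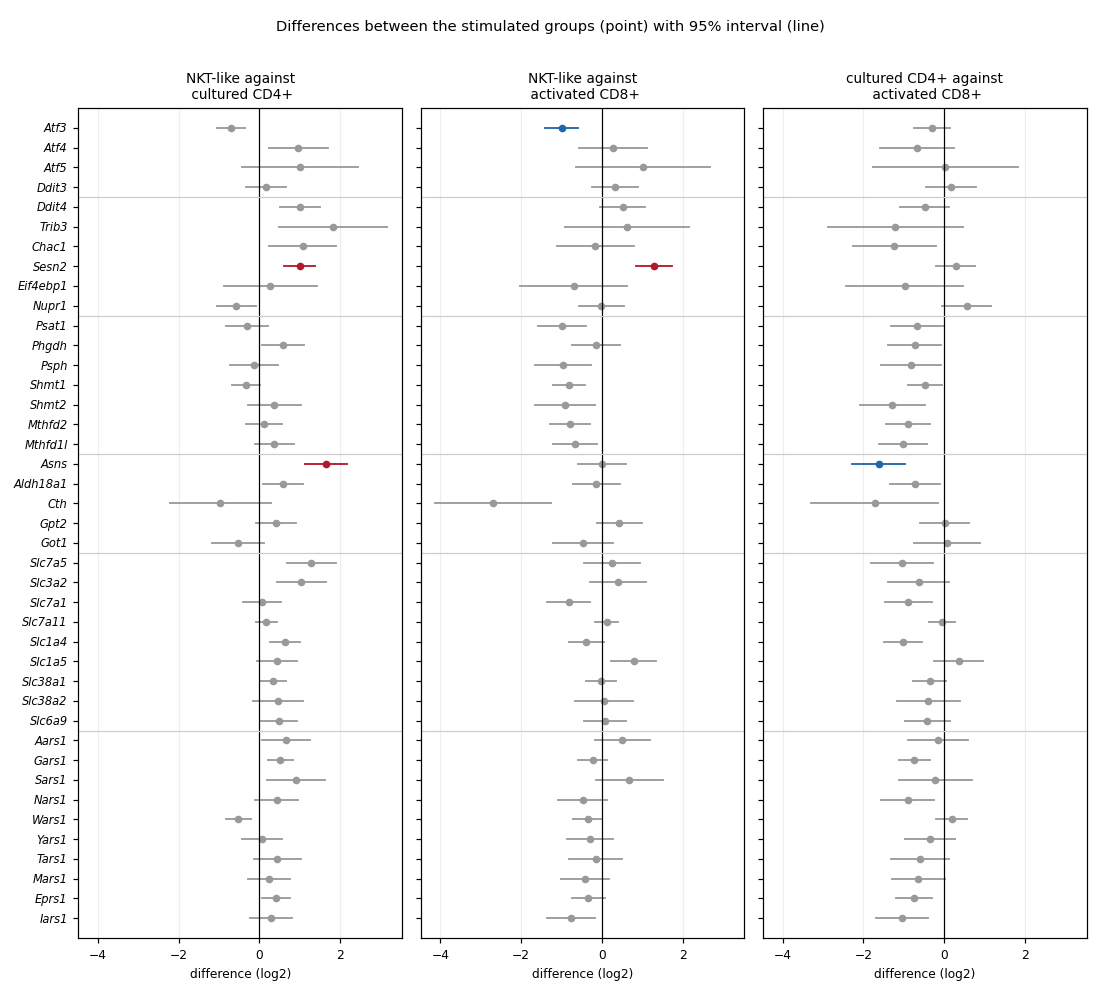
Differences in log2 units between the stimulated groups for the 41 genes, ordered by role between the grey lines; points are differences, lines 95% intervals, red passed as higher in the first named group, blue as lower and grey did not pass. Sesn2 is red in both NKT-like panels, Asns is red against cultured CD4+ and blue in cultured CD4+ against activated CD8+, and the serine enzymes lie left of 0 in both comparisons with activated CD8+.

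The 5 NKT-like cultures differed among themselves in these genes. Replicate 2 had 97 to 110 probe sets with a value identical to that on another NKT-like array. The other arrays of the group had 585 to 914 such probe sets with each other. Whether replicate 2 was processed apart was not tested. The median SD over the 41 genes was 0.38 log2 in the NKT-like group against 0.15 for all genes, and 0.29 against 0.17 in cultured CD4+, 0.15 against 0.13 in naive and 0.30 against 0.28 in activated CD8+ cells. The medians were also taken over the 12901 genes kept by the filter on low values, and were 0.19, 0.19, 0.15 and 0.33 in the same order of groups. Trib3 signal was 9.20, 7.86, 10.95, 9.49 and 7.59 in NKT-like replicates 1 to 5, Atf5 signal 7.87, 7.40, 10.84, 9.34 and 7.55, and Eif4ebp1 signal 11.24, 9.55, 11.37, 11.30 and 9.04. Chac1 followed with 9.11, 7.80, 9.28, 9.06 and 7.55. In all 4 genes replicates 2 and 5 were the lowest pair. They were named for their spread after their values were seen. Atf5, Trib3, Cth and Eif4ebp1 had an SD above 1 in this group, and no listed gene did in the others. Over all 41 genes the mean signal was 9.97, 9.46, 10.10, 10.03 and 9.40 in replicates 1 to 5, beside 7.29, 7.32, 7.30, 7.31 and 7.28 over all genes. Replicate 5 held the lowest NKT-like value in 21 of the listed genes and replicate 2 in 15, and this was not counted over all genes. Replicates 2 and 5 were not the lowest pair in every listed gene. Sesn2 had 8.45 in replicate 2, 8.51 in replicate 5 and 8.04 in replicate 4. Atf4 had 11.19 in replicate 4 and 11.22 in replicate 5. The mean over the 41 genes was 9.13, 9.54 and 9.53 in cultured CD4+, 10.16 and 9.78 in activated and 8.66 and 8.56 in naive cells.

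**Figure D5:**
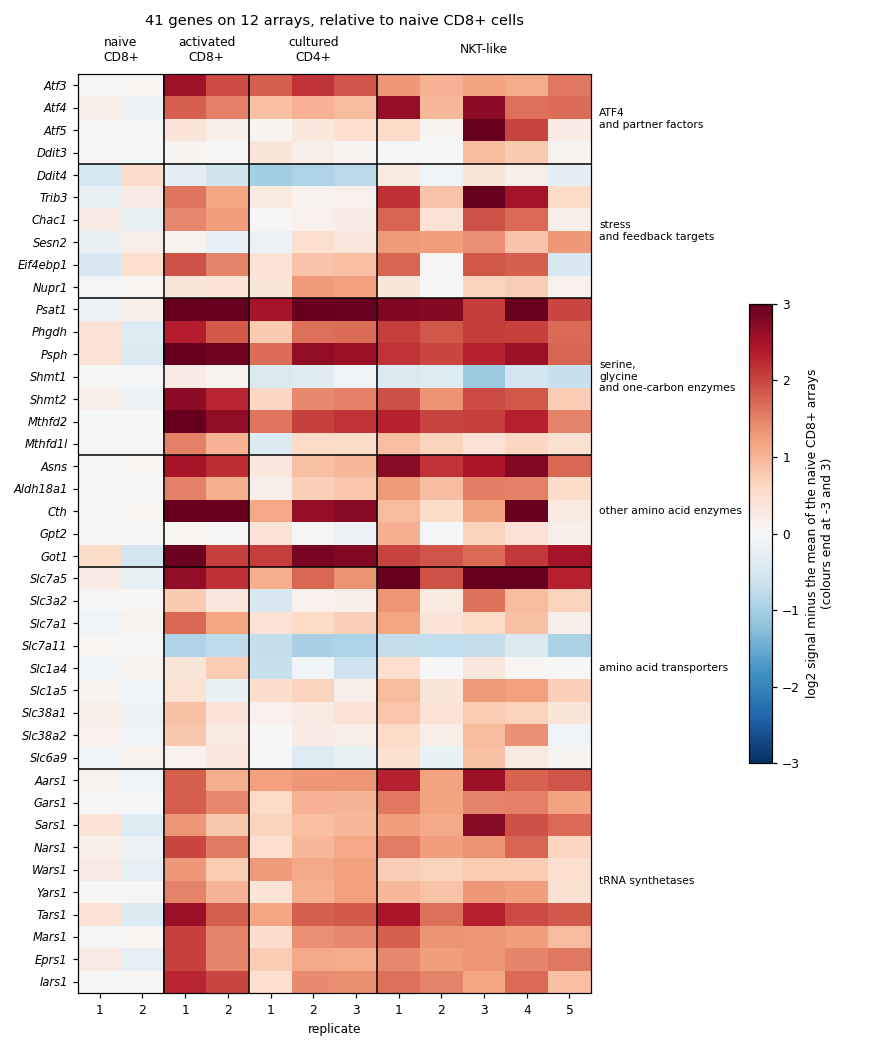
Signal of the 41 genes (rows, by role) on the 12 arrays (columns, by group and replicate) as log2 difference from the mean of the 2 naive CD8+ arrays; red is higher, blue lower, and colours end at -3 and 3. Psat1, Psph and Mthfd2 are red in all 10 stimulated samples, whereas Atf5 and Trib3 are strongest in NKT-like replicate 3 and pale in replicates 2 and 5.

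The listed genes with and without the promoter element were set side by side, with no test. Of 13 measured genes with the element, 8 rose, 1 fell and 4 did not pass in NKT-like against naive cells, with a median of 1.39 log2; of 21 measured genes with a window but no element, 11 rose, 0 fell and 10 did not pass, with a median of 1.22. Asns, whose element lies just before its start site, rose 5.13-fold, while Slc7a11, which holds 2 elements, fell, and Psat1 and Mthfd2 rose without the element in their windows. The absence of these letters from a window says nothing of other sites of the gene.

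Upstream of ATF4, the eIF2 kinases, the subunits of eIF2 and eIF2B and the phosphatase subunits were counted: of 14 measured genes 5 rose and 0 fell in NKT-like, 3 and 0 in cultured CD4+ and 5 and 0 in activated CD8+ cells. In the same order, 10.7%, 11.6% and 4.43% of all genes rose and 6.86%, 5.64% and 2.78% fell. Eif2ak3, the kinase PERK that responds to unfolded protein in the endoplasmic reticulum, had a signal of 10.40, 11.19, 10.69, 10.83 and 10.47 in NKT-like, 8.38, 9.04 and 8.88 in cultured CD4+, 8.42 and 7.52 in activated and 8.32 and 8.34 in naive cells. All NKT-like values lay above all 7 others. It was 5.22-fold higher than naive (q = 6.78e-05), 3.86-fold higher than cultured CD4+ (q = 0.000567) and 6.70-fold higher than activated CD8+ cells (q = 0.00012). These 3 calls held with each of the 12 samples left out in turn. In cultured CD4+ and activated CD8+ cells its difference from naive did not pass, at 0.44 ± 0.29 and -0.36 ± 0.32. Eif2s2, a subunit of eIF2, rose 2.27-fold, 2.43-fold and 2.96-fold over naive in NKT-like, cultured CD4+ and activated CD8+ cells.

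Of 9 measured bZIP proteins that can pair with ATF4 or act beside it, 0 rose and 3 fell in NKT-like cells, with 2 higher at an unadjusted p under 0.05. In this comparison 10.7% of all genes rose and 6.86% fell. Nfe2l2, the oxidative stress factor NRF2, was 3.80-fold lower (q = 0.00619) and Creb1 2.25-fold lower (q = 0.00253). Of 20 other amino acid transporters 3 rose and 4 fell, beside the same shares of all genes. Slc16a10, which carries aromatic amino acids, was 2.92-fold higher than naive (q = 0.000922), 2.47-fold higher than cultured CD4+ (q = 0.00674) and 2.78-fold higher than activated CD8+ cells (q = 0.00485), and Slc7a6, a carrier of basic and neutral amino acids, was 2.49-fold higher than naive. The Slc16a10 call against cultured CD4+ cells was lost in 9 of the 12 fits without a sample, with q up to 0.0341, and the others without either sample of the group compared. Without naive replicate 2 the counts of genes higher and lower than naive were 0 and 0 for the bZIP proteins and 0 and 1 for these transporters, and the changes of Nfe2l2, Creb1 and Slc7a6 no longer passed.

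Of 18 other enzymes of folate, glycine, methionine and branched-chain amino acid metabolism, 5 rose and 0 fell, with Bcat1, the cytosolic branched-chain aminotransferase, at 6.55-fold and Ahcy, which clears S-adenosylhomocysteine, at 3.52-fold. Against cultured CD4+ cells, NKT-like cells had 2.10-fold less Oat (q = 0.00351), which turns ornithine towards proline and glutamate. Of 24 genes of amino acid sensing by mTORC1, 5 rose and 2 fell against naive. In NKT-like against naive cells 10.7% of all genes rose and 6.86% fell. Lamtor4, part of the lysosomal anchor of mTORC1, rose 3.37-fold, and Sesn3, a relative of Sesn2, was 2.69-fold lower (q = 0.00722). Without naive replicate 2 the higher counts in NKT-like cells were 2 of 18, 1 of 24 and, for the eIF2 genes above, 2 of 14. The calls of Bcat1, Ahcy, Lamtor4 and Eif2s2 against naive held in these cells with each sample left out, while that of Sesn3 was lost in 7 of the 12 fits. The Oat call was lost without any 1 of the cultured CD4+ samples (q up to 0.0217). Castor1, the arginine sensor, had a signal of 7.64, 7.62, 7.85, 8.16 and 7.54 in NKT-like and 9.19, 8.997 and 9.11 in cultured CD4+ cells, 2.52-fold lower in the former (q = 0.000175).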

How the data were processed

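RNA of the 12 samples was hybridized to Affymetrix whole-genome mouse arrays, 1 per sample. The authors deposited log2 values from RMA (background correction, quantile normalization and probe set summary). The version of RMA is not stated. Nor is it known whether all arrays were normalized together; array medians ran from 6.23 to 6.42. Differences between deposited scales were not corrected in the main analysis, so quantile normalization, cyclic loess and median centring were run as alternatives. Of the probe sets, 64 controls were left out and 45037 tested; 34945 carry 1 symbol, 932 several and 9160 none. Linear models of the 4 groups were fitted with limma 3.58.1 in R 4.3.3 (8 residual and 3.03 prior degrees of freedom), and Storey q-values were computed per comparison over all tested probe sets with code written for this work, checked on simulated data. Errors are the SE of the fit. For tRNA synthetases the older symbol was also accepted. Promoter windows are RefSeq sequences of GRCm38.p6.

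The genes, gene lists and tests were chosen with earlier results of these data known, and the study's own table, which lists Atf4, had been read. Values on every array were printed for Atf4, for genes at least 2-fold apart between stimulated groups, for up to 2 genes of each role with the largest passing change between NKT-like and naive cells and for genes moving against their role; from each related list, up to 2 genes with the largest passing change against naive and against cultured CD4+ cells were named. Cth, Trib3, Atf5, Eif4ebp1 and Chac1 were given on every array after their values were seen. Alternatives comprised other priors, array weights, each pair of groups alone, Benjamini-Hochberg adjustment, a q of 0.05, a 2-fold minimum, a filter on low values, other probe set rules, the replicate number as a block and each sample left out.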

Additional observations from a re-analysis of the deposited data

Results flagged for a closer look

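Among the 41 genes, each tested once for an outlying array within the 5 NKT-like cultures, 1 was picked out: Sesn2 in NKT-like replicate 4, at 8.04 log2 where the nearest other culture had 8.45. The gap was 0.782 of the range of the group, above the critical value of 0.71. Chance alone picks out about 1 group in 20. In this replicate Sesn2 was still above all 7 samples of the other groups.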

How the results depend on the processing

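Under 13 alternatives and with each of 12 samples left out in turn, 0 of the 62 calls on the listed genes reversed, 15 held under all 13 alternatives, 19 in every fit without a sample and 12 in both. In NKT-like against naive cells the fits without a sample gave 8 to 24 genes higher and 0 to 2 lower, in cultured CD4+ against naive 5 to 18 and 1 to 1, in activated CD8+ against naive 6 to 21 and 0 to 1, in NKT-like against cultured CD4+ 1 to 3 and 0 to 0, in NKT-like against activated CD8+ 0 to 1 and 0 to 1, and in cultured CD4+ against activated CD8+ 0 to 0 and 0 to 1. The cause of the changes below was not tested. For NKT-like against naive, the lower count was 2 at a q of 0.05, 2 after quantile normalization, 2 after cyclic loess, 0 with a 2-fold minimum and 0 with the mean of all probe sets. For cultured CD4+ against naive, 9 rose after quantile normalization (9.2% of all genes) and 7 after cyclic loess (8.89%), where 11.6% rose in the main fit. The lower count was 2 at a q of 0.05, 0 with a 2-fold minimum, 3 after quantile normalization and 2 after cyclic loess. For activated CD8+ against naive, 6 rose with array weights (0.473% of all genes) and 4 with the pair of groups fitted alone (0.308%), where 4.43% rose in the main fit. The lower count was 0 with array weights, the pair alone, a 2-fold minimum, a filter on low values (25425 probe sets kept) or the mean of all probe sets. For NKT-like against cultured CD4+, the higher count was 4 at a q of 0.05, 4 after quantile normalization, 4 after cyclic loess, 1 after median centring and 1 with the mean of all probe sets, and the lower count 2 with array weights, 1 with the pair alone and 1 at a q of 0.05. For NKT-like against activated CD8+, the higher count was 0 with array weights, and the lower count 0 with array weights, the pair alone, a 2-fold minimum or median centring, 6 at a q of 0.05, and 2 with the filter, quantile normalization or cyclic loess. For cultured CD4+ against activated CD8+, the lower count was 0 with array weights, the pair alone, Benjamini-Hochberg adjustment or median centring, 3 at a q of 0.05, and 4 after quantile normalization or cyclic loess.

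Replicate numbers recur across groups. Of the same-number pairs, 3 of 13 had a correlation of deviations over 0.1 (range -0.50 to 0.28), against 14 of 38 other pairs. The deviations are from group means, so the replicates within the naive and within the activated CD8+ group deviate in exactly opposite ways. Their correlations with any sample of another group are equal in size and opposite in sign. These counts therefore cannot decide whether the numbers pair the samples. With the replicate block the genes higher and lower numbered 7 and 0 in NKT-like against naive, 6 higher in cultured CD4+ against naive, 9 and 0 in activated CD8+ against naive, 0 higher in NKT-like against cultured CD4+, 0 and 0 in NKT-like against activated CD8+ and 0 lower in cultured CD4+ against activated CD8+. Median centring moved the median of all genes from -0.05 to 0.06 in NKT-like and from -0.05 to 0.07 in cultured CD4+ against naive. The share of all calls that were higher was 60.9% in NKT-like against naive (48.7% after quantile normalization, 71.4% after centring) and 67.3% in cultured CD4+ against naive (54% and 77.3%). Against activated CD8+ cells it was 77.1% for NKT-like (58.6% after quantile normalization, 66.8% after cyclic loess) and 82.7% for cultured CD4+ (71.1% after quantile normalization).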
